A study of Gallus gallus with 6 samples.

Results

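Transcripts of 9 genes of the histone deacetylase machinery were followed in cultured DT40 cells, a B cell line of the chicken whose immunoglobulin genes go on diversifying. They were the class I deacetylases HDAC1, HDAC2, HDAC3 and HDAC8, the class IIa deacetylases HDAC4, HDAC7 and HDAC9, the corepressor NCOR1 and the scaffold SIN3A. Their rows were found by symbol alone among the 17108 genes of the deposited tables, and each of the 9 had a single row. The 9 genes themselves were chosen with earlier results of these data known. Wild type cells, called Clone 18, were compared with Bach2-/- cells of the same line, with 3 libraries of total RNA per genotype from independent cultures kept in the same medium. How the allele was disrupted is not given in the labels. The deposited columns of all 3 knockout libraries share the name Bach2ko1. This may stand for a single knockout clone, but no label says so. With a single clone, an effect of the genotype and a difference particular to that clone cannot be told apart.

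Histone deacetylases remove acetyl groups from histone tails, which in general goes with less accessible chromatin and lower transcription. HDAC1 and HDAC2 are close paralogs that form the catalytic core of the SIN3, NuRD and CoREST complexes, whereas HDAC3 is the deacetylase of the complexes built on NCOR1. Class IIa enzymes have little deacetylase activity of their own in vertebrates, bind MEF2 transcription factors and are held in the cytoplasm by 14-3-3 proteins when phosphorylated. BACH2 is a DNA-binding repressor of B cells, and in mouse B cells it has been described together with HDAC3 and NCOR1 at a target gene.

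Gene counts summed to between 8999010 and 20647281 per library. BACH2 itself was at 2.67, 2.55 and 2.45 RPKM (counts scaled by gene length and library total) in wild type replicates 1 to 3, and at 1.07, 1.39 and 1.06 RPKM in the knockout. It thus fell by 1.16 ± 0.20 on the log2 scale without reaching 0 (SE; edgeR adjusted p = 0.00144). Knockout replicate 1 stood apart from the other knockout libraries on the second principal component, which held 13.0% of the variance. All 9 B cell markers examined were detected, and 6 of them were lower in the knockout, where 18.0% of all tested genes were lower (edgeR adjusted p under 0.05). Their summed level was 1244 to 1361 RPKM in wild type and 1022 to 1062 RPKM in the knockout. T cell markers summed to 159 to 199 RPKM in wild type and 109 to 137 RPKM in the knockout, nearly all of it CD3D. CD3E fell from 6.79 ± 1.62 to 0.329 ± 0.152 RPKM and a CD8A row from 3.11 ± 0.744 to 0.153 ± 0.0661 RPKM (SD, n = 3 each), while CD4 and CD28 were at 0. Of 2 erythroid markers with a row, HBAA was at 0 and TAL1 near 0. Of 2 macrophage markers with a row, MARCO was at 0 and SPI1, which B cells also express, was at 87.1 RPKM. The part of these marker differences in the results below was not tested. In bulk RNA, fewer cells of a type and less RNA per cell cannot be told apart.

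The levels of the 9 genes, which RPKM allows to be compared per length, spanned more than the changes between genotypes. HDAC2 was the most abundant, with a mean of 158.8 RPKM over the 6 libraries, higher than 93.7% of the 9159 genes tested. HDAC8 followed with 69.6 RPKM, then HDAC3 with 59.5, HDAC1 with 47.6 and HDAC9 with 44.0 RPKM. SIN3A was at 30.4 and NCOR1 at 15.2 RPKM, the latter close to the median tested gene (14.6 RPKM). HDAC4 was at 1.01 RPKM and HDAC7 was listed at 0. The order of HDAC8 and HDAC3, and that of HDAC3 and HDAC1, held without overlap in wild type, but in the knockout the library values of each pair overlapped. HDAC1 and HDAC9 overlapped in both genotypes. All other neighbours in the order were separated in each genotype, as the plot of levels shows.

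**Figure D1:**
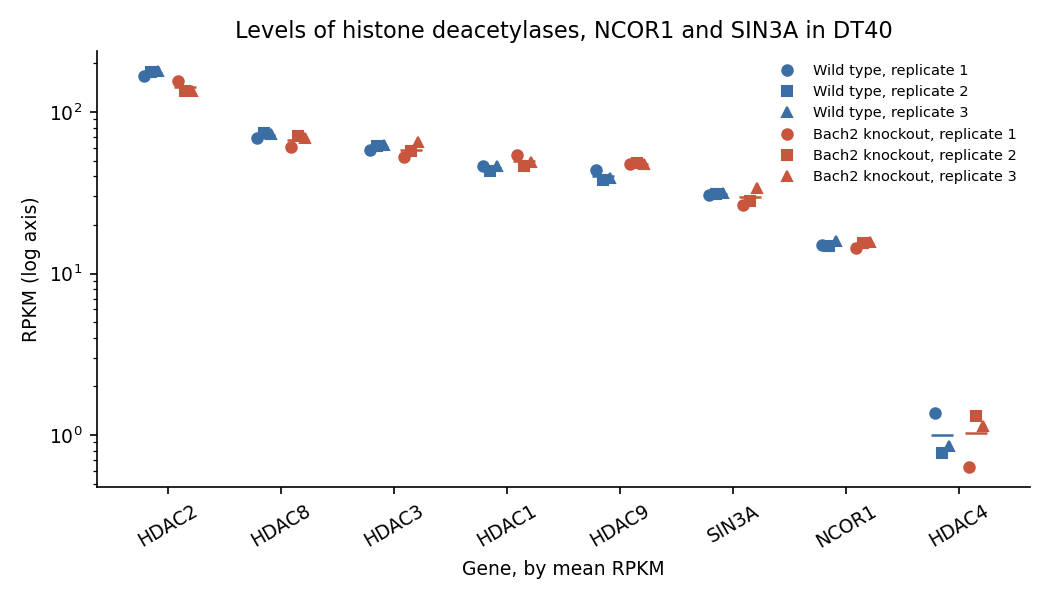
Deposited RPKM (log axis) of the 8 detected genes, ordered by mean level, in 3 wild type (blue) and 3 Bach2 knockout (red) libraries. Each symbol is a library and each line a group mean. HDAC2 stands highest, HDAC4 lowest at about 1 RPKM, and only HDAC2 and HDAC9 show no overlap between the genotypes.

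Of the 8 detected genes, all passed the filter on low counts and were tested. HDAC2 fell and HDAC9 rose in the knockout at an edgeR adjusted p under 0.05, and 6 did not pass. Across all tested genes 30.7% passed in either direction, 12.7% higher and 18.0% lower. A count of 2 in 8 is thus near the background. The genotypes did not overlap for the same 2 genes, against 46.2% of all genes tested. The median log2 fold change of the 8 genes was -0.061, beside -0.0014 for all genes tested.

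HDAC2 was at 168, 178 and 181 RPKM in wild type replicates 1, 2 and 3. In the knockout it was at 156, 136 and 135 RPKM. Every knockout library lay below every wild type library, and knockout replicate 1 was the closest to wild type. The means were 175 ± 6.48 and 142 ± 11.7 RPKM (SD, n = 3 each). HDAC2 fell by 0.34 ± 0.076 on the log2 scale, to 0.792 of the wild type level (SE; 95% interval of the fold 0.705 to 0.889; edgeR adjusted p = 0.00671). The call held when any single library was left out, with log2 fold changes from -0.40 to -0.28. Without knockout replicate 1 it was -0.40 (edgeR adjusted p = 4.15e-05).

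HDAC2 lies on chromosome 3 in the chicken assembly GRCg7b, and was the only member placed there. Of 688 tested genes on that chromosome, 484 were lower in the knockout, or 70.3%, and 8 were higher. The median log2 fold change of the chromosome was -0.45, against 0.028 for 7622 genes on other chromosomes. HDAC2 changed less than most of them: 68.3% of chromosome 3 genes had a more negative fold change. Taken relative to the chromosome's median, its log2 fold change was 0.12 ± 0.076 (SE; 95% interval -0.050 to 0.28; edgeR adjusted p = 0.286). The decrease of HDAC2 was therefore no larger than that of the typical gene of its chromosome. The median, taken from the same data, entered the fit as a fixed offset. Intervals and p-values relative to that median, here and below, thus leave out the spread among chromosome 3 genes. Among the 20 nearest tested genes, 10 on each side, 14 were lower and 1 was higher in the knockout, with a median of -0.53. The nearest genes that were both placed and tested were NT5DC1 at -0.50 on one side and TUBE1 at -0.76 on the other. Genes not tested or not placed may lie between. The widest changes among these 20 genes were decreases of FAM26E (-3.52, at 4.20 RPKM) and SLC35F1 (-3.05, at 0.0774 RPKM). The gene farthest to one side, DDO (D-aspartate oxidase), rose by 2.79 and was low, at 1.32 RPKM.

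**Figure D2:**
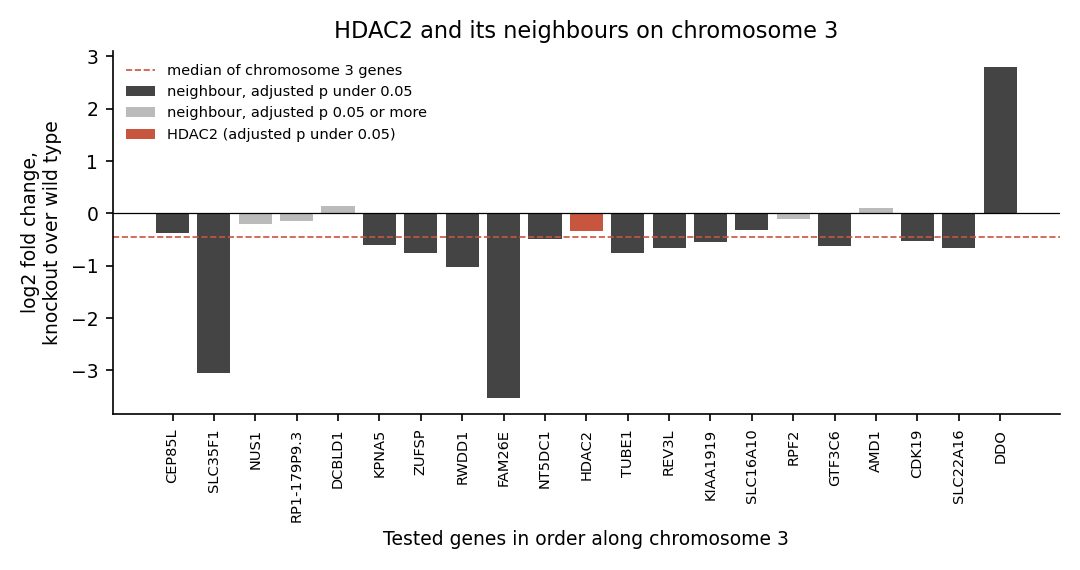
Log2 fold change, knockout over wild type, of HDAC2 (red bar) and the 10 nearest tested genes on each side in their order along chromosome 3. Dark bars have an edgeR adjusted p under 0.05, and the dashed line is the median of chromosome 3 genes (-0.45). HDAC2 lies a little above that line. Of the 20 neighbours, 14 are lower in the knockout, beside 70.3% of all tested chromosome 3 genes.

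HDAC1, which shares its complexes with HDAC2, was at 46.5, 43.1 and 46.3 RPKM in wild type and at 54.3, 46.1 and 49.4 RPKM in the knockout. Knockout replicate 2 lay within the wild type range and replicates 1 and 3 above it. Its change did not pass (log2 fold change 0.11 ± 0.077, SE; edgeR adjusted p = 0.321). Its 95% interval as a fold was 0.958 to 1.21, so that a decrease as large as that of HDAC2 lay outside it.

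The ratio of the paralogs was lower in every knockout library than in any wild type library. HDAC2 exceeded HDAC1 3.61, 4.13 and 3.90 times in wild type replicates 1, 2 and 3, and 2.87, 2.94 and 2.74 times in the knockout. Knockout replicate 1, which was nearest to wild type for HDAC2 alone, had a ratio between those of the other knockout libraries. The mean ratios were 3.88 ± 0.257 and 2.85 ± 0.104 (SD, n = 3 each). As the genotypes did not overlap in this ratio, a two-sided exact permutation test could only return p = 0.10. That is the smallest p that 3 against 3 libraries allow, and it adds nothing to the separation seen. The ratio was chosen with earlier results of these data known. HDAC2 alone already separated the genotypes, as did 46.2% of all genes tested. The ratio is thus not independent of the HDAC2 decrease. HDAC2 lies on chromosome 3, whose median log2 fold change was -0.45, and HDAC1 on chromosome 23. In the fit relative to that median, HDAC2 stood at a log2 fold change of 0.12 and HDAC1, which took no offset, at 0.11. The part of the chromosome in the ratio was not tested.

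**Figure D3:**
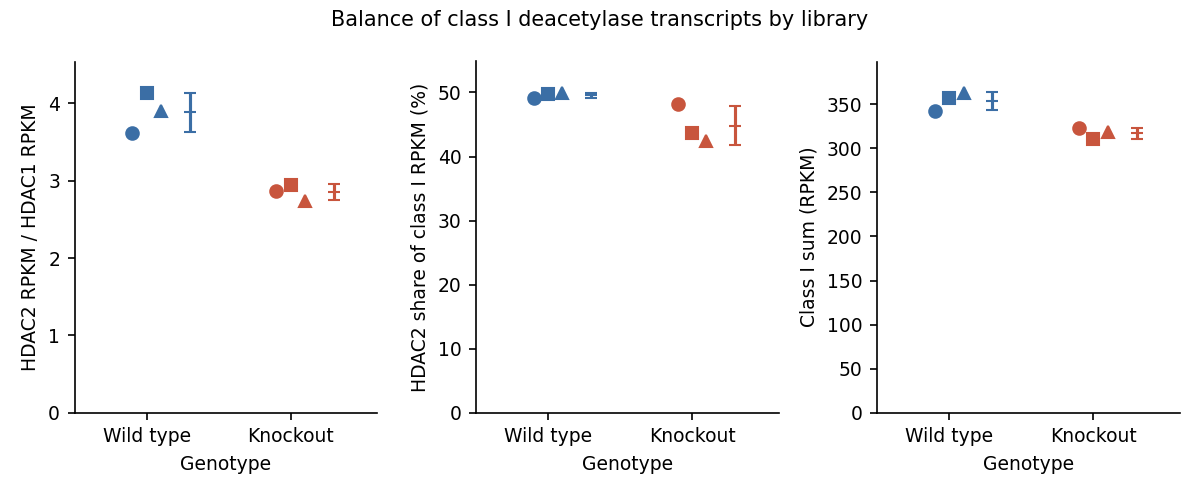
Ratio of HDAC2 to HDAC1 RPKM (left), share of HDAC2 in the summed RPKM of HDAC1, HDAC2, HDAC3 and HDAC8 (middle) and that sum (right), by library, with the mean ± SD of each genotype beside the points and axes from 0. The genotypes do not overlap in any panel, but each panel contains HDAC2, whose values alone do not overlap. The mean ratio is 3.88 in wild type and 2.85 in the knockout.

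HDAC3, the catalytic partner of NCOR1, was at 58.2, 61.8 and 62.1 RPKM in wild type and at 52.4, 57.7 and 64.9 RPKM in the knockout. The knockout libraries lay on both sides of the wild type range. No difference was detected (log2 fold change -0.086 ± 0.086, SE; 95% interval of the fold 0.827 to 1.07; edgeR adjusted p = 0.480).

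HDAC8, a class I enzyme that in human cells deacetylates the cohesin subunit SMC3, was at 69.5, 74.6 and 73.3 RPKM in wild type. In the knockout it was at 60.4, 70.8 and 68.9 RPKM. Replicates 1 and 3 of the knockout were below all wild type libraries and replicate 2 was within their range. HDAC8 did not pass (log2 fold change -0.15 ± 0.079, SE; 95% interval of the fold 0.799 to 1.02; edgeR adjusted p = 0.180).

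Summed over the 4 class I genes, levels were 342, 357 and 362 RPKM in wild type and 323, 310 and 318 RPKM in the knockout. The sum was lower in every knockout library, by 36.8 RPKM on average, and HDAC2 alone was lower by 33.4 RPKM. HDAC2 made up 49.6% ± 0.400 of the class I sum in wild type and 44.8% ± 3.03 in the knockout (SD, n = 3 each). Both the sum and the share contain HDAC2 and are not separate from its decrease. They are given as a description without a test.

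Among HDAC4, HDAC7 and HDAC9, nearly all transcripts counted were those of HDAC9. HDAC7 was listed at 0 and may have been missed, as set out below. HDAC5, the other class IIa gene, had no row under the symbols searched and was not analysed here. HDAC9, a MEF2-binding deacetylase, was at 43.6, 37.8 and 39.2 RPKM in wild type and at 47.5, 48.3 and 47.8 RPKM in the knockout. All knockout libraries lay above all wild type libraries and close together, with wild type replicate 1 the nearest. The means were 40.2 ± 3.07 and 47.9 ± 0.427 RPKM (SD, n = 3 each). HDAC9 rose by 0.22 ± 0.072 on the log2 scale, or 1.16-fold (SE; 95% interval of the fold 1.04 to 1.30; edgeR adjusted p = 0.0393). This call was not stable: it was lost without wild type replicate 2, wild type replicate 3 or knockout replicate 2 (edgeR adjusted p = 0.172, 0.138 and 0.116). Without knockout replicate 1 the log2 fold change was 0.23 (edgeR adjusted p = 0.0132).

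HDAC4, the paralog of HDAC9, was low. Its counts were 120, 46 and 33 in wild type replicates 1 to 3 and 35, 100 and 94 in the knockout, or 1.36, 0.774 and 0.858 RPKM against 0.633, 1.30 and 1.14 RPKM. The genotypes overlapped widely, and wild type replicate 1 resembled knockout replicates 2 and 3 more than its own group. Its log2 fold change stood at -0.0057 ± 0.30 (SE; edgeR adjusted p = 0.991), and its sign turned in several alternatives. The 95% interval of the fold was 0.634 to 1.56, and the RPKM of single libraries varied by 31.9% of the mean in wild type and 34.1% in the knockout (SD over mean, n = 3 each).

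HDAC7, the class IIa member known from mouse for its role in lymphocyte development, had no count in any of the 6 libraries. Of the 17108 genes, 4849 had no count in any library. If reads of HDAC7 could be counted, 0 allows up to 0.145 CPM in the deepest library and 0.333 CPM in the shallowest. This takes 3 counts as the floor and covers counting error only. Whether HDAC7 was silent or missed by the build or annotation was not tested. With HDAC7 taken as 0, HDAC9 supplied 97.6% ± 0.555 of the sum of HDAC4, HDAC7 and HDAC9 in wild type. The share was 97.9% ± 0.689 in the knockout (SD, n = 3 each).

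NCOR1, the platform that binds and activates HDAC3, was at 15.1, 14.8 and 15.9 RPKM in wild type and at 14.5, 15.4 and 15.7 RPKM in the knockout. The ranges overlapped almost completely, with a log2 fold change of -0.036 ± 0.069 (SE; edgeR adjusted p = 0.725). Its 95% interval as a fold was 0.878 to 1.08, the tightest among the members that did not pass.

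SIN3A, the scaffold that carries HDAC1 and HDAC2, was at 30.8, 31.1 and 31.7 RPKM in wild type. In the knockout it was at 26.6, 28.3 and 33.9 RPKM, so that the knockout libraries spread around the narrow wild type range. SIN3A did not pass (log2 fold change -0.11 ± 0.090, SE; 95% interval of the fold 0.809 to 1.07; edgeR adjusted p = 0.402). Without knockout replicate 3 it reached -0.20 and still did not pass (edgeR adjusted p = 0.0728).

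**Figure D4:**
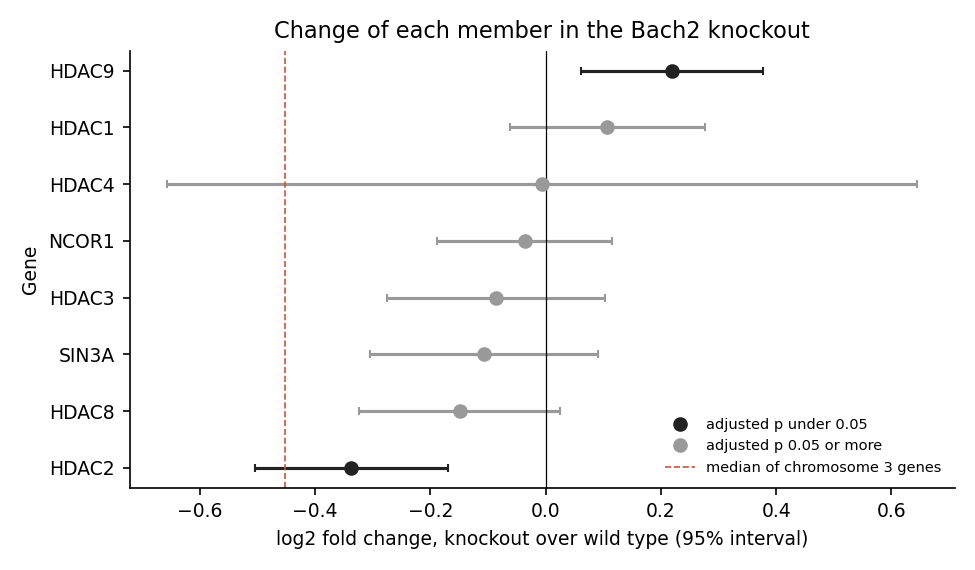
Log2 fold change, knockout over wild type, of the 8 tested genes with 95% intervals from the edgeR fit. Black marks an adjusted p under 0.05 and grey 0.05 or more. HDAC2 (-0.34) and HDAC9 (0.22) are the genes whose intervals exclude 0; the dashed line at -0.45 is the median of chromosome 3 genes, which applies to HDAC2 only.

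For the 5 genes without a call other than HDAC4, the 95% intervals together ran from 0.799 to 1.21 as a fold of wild type. The absolute log2 fold change of HDAC2 exceeded that of 66.5% of tested genes, and that of HDAC9 exceeded 49.9%.

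Wider lists of corepressor, acetylation and partner genes held 103 genes, of which 84 had a row. There were 73 rows tested, of which 9 rose, 11 fell and 53 did not pass. The 11 that fell include BACH2, the gene disrupted by design. The share called, 27.4%, lay near the 30.7% of all tested genes. Their median log2 fold change was 0.021. With library totals in place of TMM scaling, 17 were higher and 11 lower. Among the 20 called genes, 7 stayed called whichever single library was left out: BACH2, BCL6, IKZF3, KAT2A, MEF2D, PRKD3 and TRERF1. The remaining 13 did not.

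TBL1X and TBL1XR1, subunits of the complexes of HDAC3 and NCOR1, did not pass. TBL1X was at a log2 fold change of 0.17 ± 0.064 (SE; edgeR adjusted p = 0.0689) and TBL1XR1 at -0.022 ± 0.075 (edgeR adjusted p = 0.854). HDAC11, the remaining zinc-dependent deacetylase with a row, was low at 2.40 RPKM and did not pass (0.25 ± 0.22, edgeR adjusted p = 0.412). Of 5 sirtuin rows tested, NAD-dependent deacylases, SIRT5 was lower (-0.44 ± 0.14, SE) and the others did not pass. That is 20% called, beside 30.7% of all tested genes.

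In the complexes that hold HDAC1 and HDAC2, most genes did not pass. The share called was 23.1% in the SIN3 list and 27.3% in the CoREST, MiDAC and CtBP list. It was 50% in the NuRD list, which had only 6 tested genes, beside 30.7% of all tested genes. RBBP4 and RBBP7, which NuRD shares with SIN3, were counted in the SIN3 list only, and neither passed. Of 13 SIN3 complex genes, ARID4A (0.28 ± 0.085) and ING1 (0.30 ± 0.096) rose and ARID4B fell by 0.35 ± 0.095 on the log2 scale. The gene with the highest mean among them was the histone chaperone gene RBBP4. RBBP4 was at 420 ± 14.4 RPKM in wild type and 397 ± 8.44 RPKM in the knockout (SD, n = 3 each, edgeR adjusted p = 0.202). In the knockout its library values overlapped those of SAP18, which was at 393 ± 17.3 RPKM there (SD, n = 3). Of 6 NuRD genes, GATAD2A rose (0.27 ± 0.065), and MTA3 (-0.34 ± 0.094) and CDK2AP1 (-0.46 ± 0.14) fell. In the CoREST, MiDAC and CtBP list, PHF21A rose (0.25 ± 0.080) and TRERF1, a MiDAC subunit, fell by 0.58 ± 0.095. ARID4B, MTA3 and TRERF1 lie on chromosome 3 like HDAC2. Relative to that chromosome's median they stood at 0.10, 0.11 and -0.13 and none of the 3 passed.

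Among 15 tested partners and kinases of class IIa deacetylases, 1 rose and 2 fell, or 20%, beside 30.7% of all tested genes. PRKD3, a protein kinase D gene whose family phosphorylates class IIa enzymes, fell from 77.6 ± 2.14 to 41.5 ± 0.891 RPKM (SD, n = 3 each; log2 fold change -0.93 ± 0.064, SE). PRKD3 is also on chromosome 3, and it stayed lower relative to the chromosome's median (-0.48 ± 0.064, edgeR adjusted p = 0.000362). MEF2D, a DNA-binding partner of HDAC9 and HDAC4, fell from 36.0 ± 3.05 to 26.3 ± 2.75 RPKM. YWHAB, a 14-3-3 gene, rose by 0.23 ± 0.078.

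Of 8 acetyltransferase genes tested, the counterparts of the deacetylases, HAT1 rose (0.30 ± 0.084) and KAT2A fell from 56.7 ± 2.84 to 42.0 ± 4.02 RPKM (SD, n = 3 each). EP300 and CREBBP did not pass, and the share called in this list was 25%, beside 30.7% of all tested genes. Of 11 tested repressor genes whose proteins are known to recruit these corepressors, 2 rose and 3 fell, beside 12.7% and 18.0% of all tested genes. The 3 that fell include BACH2, the gene disrupted by design. BCL6, which binds NCOR1, fell from 56.2 ± 12.0 to 29.2 ± 4.28 RPKM, and BACH1 rose from 1.61 ± 0.237 to 3.02 ± 1.01 RPKM. The others, named after their values were seen, were IKZF3 (-0.52 ± 0.10) and NR2F2 (2.29 ± 0.60), the latter under 1 RPKM, beside BACH2 itself. All values in parentheses here and in the lists above are log2 fold changes with SE from edgeR.

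The genes whose pattern over the 6 libraries was most like that of HDAC2, by Pearson correlation of log2 CPM, were ICK (r = 0.998), STK39 (r = 0.995) and MAP3K7 (r = 0.993). ICK and MAP3K7 lie on chromosome 3 and STK39 on chromosome 7. All of them were lower in the knockout, with log2 fold changes of -0.56, -0.65 and -0.51. These correlations describe 6 libraries in 2 genotypes, share the genotype difference, and carry no test; 217 tested genes with a symbol had an r above 0.95 with HDAC2.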

How the data were processed

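RNA sequencing of 3 wild type and 3 Bach2 knockout libraries was analysed. The authors deposited raw counts per Ensembl gene and a table read as RPKM, because each deposited value is the gene's count times a constant per gene and per library. The submitters' processing notes list limma and edgeR, the build galGal4, Subread (1.5.0) as well as TopHat2 (2.1.0), and bcl2fastq (1.8.4); the role of each, the annotation and the strand setting are not given in the sources used here. Without strand, overlapping genes cannot be told apart, and reads of near-identical paralogs may be shared.

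Counts were fitted in R 4.3.3 with edgeR 4.0.16 (filterByExpr defaults, TMM, glmQLFit and glmQLFTest, two-sided, Benjamini-Hochberg over 9159 genes, threshold 0.05). The SE is the log2 fold change divided by the square root of F. Alternatives used DESeq2 1.42.0, limma 3.58.1 on log2(RPKM + 0.5) or log2(RPKM + 0.1), other filters and scalings, a replicate block and libraries left out. A GRCg7b gene table held 13400 of the 14007 NCBI identifiers and was used for chromosome and gene order only, as its build differs; BACH2 was not placed. No sequences of the members were used here.

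Members, lists and ratios were chosen with earlier results of these data known. Named are all members, BACH2, up to 3 called genes per wider list with at least 1 RPKM by absolute fold change, and the 3 genes most like HDAC2. Some members of the wider lists are not reported here, though they are in the counts. In simulated data for this comparison (9159 genes), 50 genes were shifted at each of 4 sizes. edgeR found 16.0% at 1.25-fold, 72.0% at 1.5-fold, 84.0% at 2-fold and 98.0% at 4-fold. It also called 12 of the 8959 genes left as they were. The genes shifted were a far smaller part of all genes than the 30.7% called in the real data. The cut on adjusted p was therefore stricter in the simulation, and these shares do not carry over to the real comparison. No libraries were duplicates: chi-square per degree of freedom within a genotype was at least 2.78. P-values measure the spread between cultures.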

Additional observations from a re-analysis of the deposited data

How the results depend on the processing

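HDAC1, HDAC3, HDAC8 and SIN3A kept their direction and stayed uncalled in all 14 alternatives. HDAC2 stayed called and lower in 13 and turned to 0.12 relative to the chromosome 3 median, which left 0 members lower. HDAC9 stayed higher in all 14 (0.18 to 0.28) and called in 10. With the replicate block it was at 0.22 (edgeR adjusted p = 0.0632), so that 0 members were higher; the block changed no other call among the members. Replicate numbers were not taken as pairs: deviations of same-numbered libraries correlated at 0.0036, 0.093 and -0.021. HDAC4 turned positive with library totals (0.029), DESeq2 (0.017) and limma on RPKM (0.019 with a pseudocount of 0.5, 0.020 with 0.1). With libraries left out in turn, HDAC4 ran from -0.20 to 0.32, NCOR1 from -0.056 to 0.0010, HDAC2 from -0.40 to -0.28 and HDAC9 from 0.18 to 0.28. Members higher then numbered 0 to 1, genes higher overall 639 to 1483 against 1163, genes higher in the wider lists 2 to 14 against 9, and genes lower in the wider lists 7 to 12 against 11. The largest number of higher genes overall came without knockout replicate 1 and the smallest without wild type replicate 1. With library totals 17 genes of the wider lists were higher. Relative to the chromosome 3 median, ARID4B stood at 0.10 and MTA3 at 0.11. Causes other than the construction of an alternative were not tested. In the simulation few 1.25-fold changes were called, a size near that of the HDAC2 decrease. Far fewer genes were changed there than were called in the data, so that share does not carry over to HDAC2. How depth bears on this was not tested.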
